A study of Mus musculus with 45 samples.

Results

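The data describe 8 abundant or structural non-coding RNAs (Rn7sk, Rmrp, Rpph1, Malat1, Neat1, Gas5, Snhg1 and Terc) in differentiating male mouse embryonic stem cells (ESCs). The members were taken by gene symbol from the counts of all 45 libraries. Of the 8, 5 (Rn7sk, Malat1, Neat1, Gas5 and Terc) matched a row among 35372, whereas Rmrp, Rpph1 and Snhg1 had no row and were not analysed here. All libraries came from wild-type E14tg2a ESCs, a line of 129/Ola background, kept before differentiation either in 2iL (serum-free medium with inhibitors of MEK and GSK3 plus the cytokine LIF) or in SL (serum plus LIF). The cells were then differentiated by 3 routes, or courses: EB, embryoid bodies in suspension in serum; EpiSC, an adherent monolayer in serum-free N2B27 with Fgf2 and ActivinA, towards epiblast stem cells; and Neural, an adherent monolayer in N2B27 alone. Each medium and course was sampled at days 1, 1.5, 2, 2.5, 3, 5 and 7, and at day 0 in each course from 2iL, with 1 library for each medium, course and day. SL at day 0 was 1 library that belonged to no course, and 2iL EpiSC at day 5 was not analysed here. The courses therefore served as the replicates of a day (n = 3). They are time courses of 1 cell line, and p-values measure the spread between these libraries only.

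RNA was depleted of ribosomal RNA rather than selected by poly(A) tail, so RNAs without a tail, such as Rn7sk and Terc, could be counted beside polyadenylated RNAs. Rn7sk, transcribed by RNA polymerase III, is the scaffold of a ribonucleoprotein that holds the elongation factor P-TEFb inactive through Hexim1 or Hexim2. Terc carries the template that telomerase copies into telomere repeats. Malat1 and Neat1 are neighbouring nuclear RNAs made by RNA polymerase II: Malat1 collects in nuclear speckles, where splicing factors are stored, and the long form of Neat1 builds paraspeckles. Gas5 and Snhg1 are spliced host genes whose introns release box C/D small nucleolar RNAs (snoRNAs), guides for ribose methylation of ribosomal RNA, and whose spliced RNAs are degraded by nonsense-mediated decay. Rmrp and Rpph1 are the RNA subunits of RNase MRP and RNase P.

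The libraries held 13093226 to 39804240 counted reads (median 18222720), with the 8 EB libraries from 2iL the deepest at 31055159 or more, and 3 reads corresponded to 0.165 CPM (counts per 1000000 counted reads of the library) in the median library. Counting error alone is small for the members, whose lowest count in a library was 115. The summed level of 8 naive pluripotency markers was 4194 to 4468 CPM in the 3 day 0 libraries from 2iL and 2531 in the SL day 0 library, and 58.1 to 312 CPM at days 5 and 7 in either medium. Late libraries also held markers of other cells: all 6 fibroblast or feeder markers were detected, with summed levels of 1.64 to 2.01 CPM at day 0 in 2iL, 12.6 to 93.2 in late EB and Neural libraries and 101 to 792 in late EpiSC libraries. The summed mesendoderm markers were at 11.2 to 21.5 CPM at day 0 in 2iL. At days 5 and 7 they were at 37.3 to 767 CPM from 2iL and 43.3 to 338 from SL. Late libraries from 2iL also held 371 to 1201 CPM of general pluripotency markers and 134 to 1891 of formative epiblast markers. The summed neural markers reached 351 to 622 CPM in late Neural libraries and 101 to 262 in late EB libraries. The late EpiSC library from 2iL lay within the range of the late Neural libraries, so a high sum was not limited to the Neural course. The blood list stayed at or below 8.52 CPM throughout. The part of these cells in the results was not tested, and in bulk RNA fewer cells of a type and less RNA per cell cannot be told apart.

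The genomic sequences below show the stretches by which these RNAs are known to act, since the counts alone do not tell the members apart in kind. They were read on the transcript strand of the GRCm38 build, 5′ to 3′. Rn7sk (ENSMUSG00000065037) is a gene of 331 bases at chr9:78175303-78175633 on the minus strand. Its first 100 bases are shown for the GATC repeats, in capitals, that Hexim proteins recognise as RNA, and its last 40 for the run ending in T, in capitals, near which Larp7 binds.
Rn7sk, bases 1 to 100: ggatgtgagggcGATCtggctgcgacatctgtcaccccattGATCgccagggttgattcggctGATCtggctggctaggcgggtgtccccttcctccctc
Rn7sk, bases 292 to 331: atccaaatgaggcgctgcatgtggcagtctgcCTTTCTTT
The GATC repeats lay at bases 13 to 16, 42 to 45 and 64 to 67. Among the longest transcripts of 32398 genes of at least 100 bases, 103 (0.318%) held 3 or more GATC in their first 100 bases. Here and below only the transcript strand was searched, and a match is a description of letters, not a site.

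Terc (ENSMUSG00000064796) lies at chr3:96414437-96414859 on the minus strand, 423 bases in the Ensembl model, of which the first 26 precede the start of the RefSeq model of 397 bases. The 100 bases from the RefSeq start are shown for the telomere template, in capitals.
Terc, bases 27 to 126: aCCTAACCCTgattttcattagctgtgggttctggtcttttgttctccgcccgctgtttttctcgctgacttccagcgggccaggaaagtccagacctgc
CCTAACCCT occurred in the first 100 bases of 11 of 32398 genes (0.0340%).

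Malat1 (ENSMUSG00000092341, chr19:5795690-5802672, 6983 bases) and Neat1 (ENSMUSG00000092274, chr19:5824708-5845478, 20771 bases) are single-exon genes on the same minus strand. Their 3′ ends are shown because both carry the U-rich motif and A-rich tract, in capitals, that pair into a triple helix. The helix protects an end made without a poly(A) tail. In Malat1 a further U-rich motif upstream is in capitals as well. A similar run, tttctttt, opens the Neat1 stretch shown and was not marked. In Malat1 the bases after the A-rich tract are those of the tRNA-like RNA cut off by RNase P.
Malat1, bases 6601 to 6750, chr19:5795923-5796072: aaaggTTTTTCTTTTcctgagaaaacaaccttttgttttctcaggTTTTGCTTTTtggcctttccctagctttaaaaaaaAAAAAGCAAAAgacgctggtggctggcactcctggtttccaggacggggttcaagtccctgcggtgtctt
Neat1, bases 20682 to 20771, chr19:5824708-5824797: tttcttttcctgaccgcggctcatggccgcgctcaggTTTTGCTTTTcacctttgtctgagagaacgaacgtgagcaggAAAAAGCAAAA
TTTTGCTTTT followed within 120 bases by AAAAAGCAAAA was found in 2 of 34599 transcripts searched, those of Malat1 and Neat1. AAAAAGCAAAA alone was in 232 transcripts (0.671%) and TTTTGCTTTT alone in 601 (1.74%).

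Gas5 (ENSMUSG00000053332, chr1:161034422-161038539, plus strand) has 25 annotated transcripts of 346 to 2556 bases, and its merged exons cover 3760 bases. The start of its shortest transcript is shown for the run of pyrimidines, in capitals, that marks RNAs whose translation follows growth conditions; 4 of the 25 transcripts, and 51 of 34599 longest transcripts (0.147%), began with CTTTC. Below it stand 2 snoRNAs of the Gas5 span and 1 of the Snhg1 span, with the C box TGATGA and the D box CTGA, at which the box C/D proteins bind, in capitals.
Gas5, first 60 bases: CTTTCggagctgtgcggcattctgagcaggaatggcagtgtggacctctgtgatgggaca
Gm22357, chr1:161036057-161036139: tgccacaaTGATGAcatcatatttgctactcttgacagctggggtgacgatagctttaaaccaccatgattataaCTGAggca
Gm23212, chr1:161036682-161036741: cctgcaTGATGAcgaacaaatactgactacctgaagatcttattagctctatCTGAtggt
Gm22744, chr19:8725092-8725156: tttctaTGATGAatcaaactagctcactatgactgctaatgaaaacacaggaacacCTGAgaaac
TGATGA in the first 20 and CTGA in the last 15 bases were found together in 305 of 1507 annotated snoRNAs (20.2%), in 8 of the 10 within the Gas5 span and in 5 of the 8 within the Snhg1 span. The 1507 were not limited to box C/D snoRNAs. Among the 8 of the Gas5 span, Snord80 (chr1:161037601-161037681) and SNORD77 (chr1:161037604-161037680) overlap and are not separate.

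Together the 5 members made up 1.20% to 3.22% of the counted reads of a library, most of it Rn7sk. Rn7sk ranged from 10682 to 22135 CPM over the 45 libraries (median 15586), 1.07% to 2.21% of a library. Malat1 ranged from 1242 to 9950 CPM (median 2194), Neat1 from 7.62 to 115 (median 28.6), Gas5 from 15.8 to 63.7 (median 39.0) and Terc from 6.65 to 27.6 (median 16.1). The highest library exceeded the lowest 2.07 times for Rn7sk, 4.04 times for Gas5, 4.16 times for Terc, 8.01 times for Malat1 and 15.1 times for Neat1, so that the most abundant member varied least.

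Levels of different genes are comparable only per length. Per kilobase of merged exons the median levels were 47088 CPM for Rn7sk, 314 for Malat1, 38.1 for Terc, 10.4 for Gas5 and 1.37 for Neat1, and this order held in 45 of 45 libraries. The places of Terc and Gas5 rest on the length taken for Gas5: over its shortest transcript of 346 bases Gas5 had a median of 113 CPM per kilobase and stood above Terc in 45 of 45 libraries. The Neat1 value spreads its reads over the whole 20771 bases, whereas its short form ends early in the gene.

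**Figure D1:**
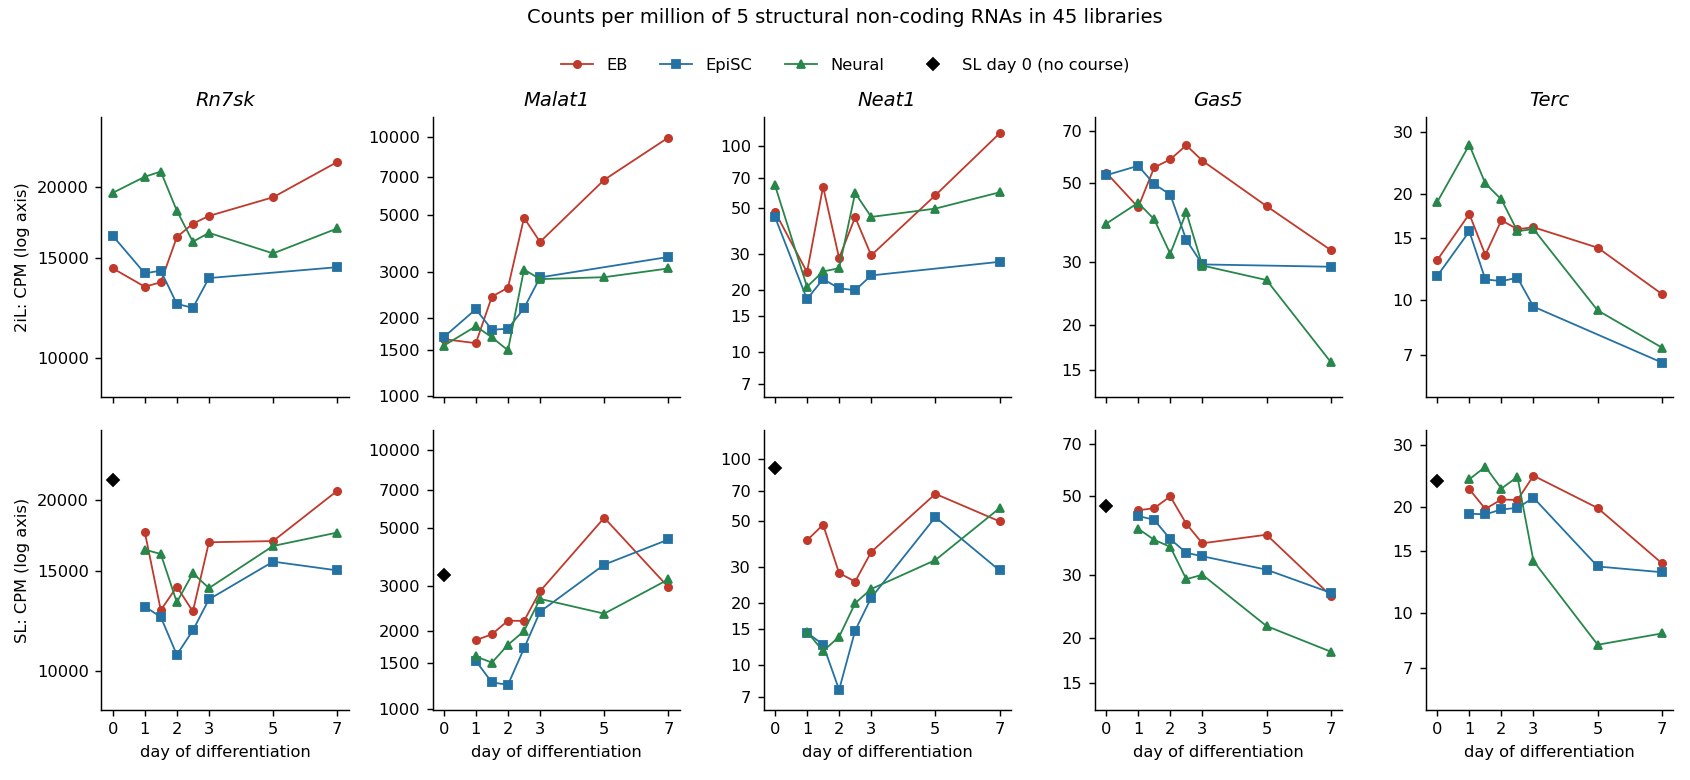
CPM on a log axis against day of differentiation for each member (columns) and starting medium (rows), with 1 library a point and a line for each course; the black diamond is the SL day 0 library, which belongs to no course. Malat1 climbs from 1562 to 1686 CPM at day 0 in 2iL to 3105 to 9950 at day 7, Gas5 and Terc are lower at day 7 than on the first day shown in each course, and Rn7sk stays within 10682 to 22135 CPM.

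Rn7sk, the RNA scaffold that restrains P-TEFb, did not pass the test in any comparison of days. In 2iL it stood at 14382, 16417 and 19523 CPM at day 0 (EB, EpiSC and Neural, in this order from here on), and at 22135, 14446 and 16905 CPM at day 7. The groups overlapped, the level being higher at day 7 in EB and lower in the other 2 courses, and the fitted log2 fold change was 0.02 ± 0.18 (SE; adjusted p = 0.93, edgeR quasi-likelihood test with Benjamini-Hochberg adjustment over all genes tested, 16306 here and 15553 to 16632 in other comparisons, used for every adjusted p unless another tool is named). In SL it stood at 17593, 12991 and 16361 CPM at day 1 and at 20775, 15042 and 17537 at day 7, higher in 3 of 3 courses, with a log2 change of 0.15 ± 0.14 (adjusted p = 0.35). Among all genes, 63.6% passed the test between day 7 and day 0 in 2iL and 63.3% between day 7 and day 1 in SL.

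The annotation holds near copies of Rn7sk, and reads could be shared among them. Gm24447 was identical to Rn7sk over 241 bases and Gm26315 was 99.6% identical over 238, and 15 of 34 similar genes (at least 80% identity over at least 50% of Rn7sk) had reads. Gm24447 counted 17.7% to 37.2% of the Rn7sk reads. This share depended on the set of libraries: it was 21.2% to 27.3% in 2iL EB, 17.7% to 23.96% in 2iL EpiSC, 32.2% to 35.8% in 2iL Neural and 27.2% to 37.2% in the 22 SL libraries. The 7 libraries of the 2iL EpiSC course stood apart in a further ratio, the reads of Gm26315 over those of Gm24447, which was 67.2% to 72.6% there and 96.6% to 98.2% in the other 38 libraries. With both copies added, the counts came to 16505 to 36720 CPM. They gave a log2 change of −0.01 between day 7 and day 0 in 2iL (adjusted p = 0.96) and 0.16 between day 7 and day 1 in SL (adjusted p = 0.38). A read that matches several of these genes may be counted at each, so the sum is not a level of Rn7sk. The counts of Rn7s1 and Rn7s2, near-identical copies of another short RNA, 7SL, differed by at most 0.103% in a library.

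Protein genes around Rn7sk were tested in the same comparisons. Of 10 genes of its ribonucleoprotein and of P-TEFb, 9 fell and 1 rose between day 0 and day 7 in 2iL, with a median log2 change of −0.44 against 0.04 over all genes tested, and 6 fell and 0 rose between day 1 and day 7 in SL (median −0.31 against 0.04). Hexim1, an inhibitor of P-TEFb, fell by 0.96 ± 0.20 on the log2 scale in 2iL (adjusted p = 0.00048) and by 0.91 ± 0.13 in SL (adjusted p = 2.1e-05). Hexim2, its paralog, fell by 1.34 ± 0.24 in 2iL (adjusted p = 0.00013) and had a log2 change of −0.28 in SL (adjusted p = 0.26). Aff4, a scaffold of the super elongation complex, was the gene that rose in 2iL (0.32 ± 0.12, adjusted p = 0.026). Among 21 genes of RNA polymerase III and its factors, 4 rose and 9 fell in 2iL and 2 rose and 11 fell in SL, where 33.8% of all genes rose and 29.9% fell in 2iL and 33% rose and 30.3% fell in SL, so that in 2iL the share called in either direction was close to that of all genes. Polr3g, the polymerase subunit of pluripotent cells, fell by 0.63 ± 0.12 in 2iL and by 1.23 ± 0.13 in SL, while Polr3gl, its paralog, rose by 0.94 ± 0.34 in 2iL.

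Of 6 other short structural RNAs tested, 3 rose and 0 fell between day 0 and day 7 in 2iL, when 33.8% of all genes rose, and 0 passed in SL between day 1 and day 7. The 3 that rose were copies of 7SL, Rn7s1, Rn7s2 and Rn7s6, and they are not separate measurements, since the counts of Rn7s1 and Rn7s2 differed by at most 0.103% in a library. The other 3, Rnu7, Snora73a and Snora73b, had log2 changes of −0.48, −0.46 and −0.49 (adjusted p = 0.37, 0.054 and 0.069). Rn7s1, a 7SL RNA of the signal recognition particle that has near-identical copies, ranged from 7032 to 40302 CPM over the 45 libraries and rose between day 0 and day 7 in 2iL (0.83 ± 0.19, adjusted p = 0.0015). Snora73a, a box H/ACA snoRNA, was at 94.1 to 125 CPM in the 2iL Neural libraries of days 0 to 3 and at 46.1 to 67.7 CPM in the 2iL EB and EpiSC libraries. Rn7sk was at 16015 to 21291 CPM in the same Neural libraries and at 12250 to 17782 CPM in the EB and EpiSC libraries of days 0 to 3. The recovery of short RNA was not tested.

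Malat1, the RNA of nuclear speckles, rose between day 0 and day 7 in 2iL and between day 1 and day 7 in SL. In 2iL it was at 1657, 1686 and 1562 CPM at day 0 and at 9950, 3439 and 3105 CPM at day 7, so that every day 7 library lay above every day 0 library, with the EB library far above the others. The fitted rise was 1.53 ± 0.29 on the log2 scale, 2.89-fold (adjusted p = 0.00025), and without the EB course 0.93 (adjusted p = 0.00037). By day 3 it was at 3932, 2868 and 2825 CPM, all above day 0 (0.91 ± 0.28, adjusted p = 0.014; 51.4% of genes called). That call was lost without the EpiSC course (adjusted p = 0.067), without the Neural course (adjusted p = 0.086) or without the course block (adjusted p = 0.053). At day 1 it was at 1598, 2161 and 1857 CPM and had not changed detectably (0.20 ± 0.28, adjusted p = 0.63). Between day 1 and day 7 it rose by 1.32 ± 0.29 (adjusted p = 0.00083), and by 0.65 without the EB course (adjusted p = 0.0032).

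From SL, Malat1 was at 1845, 1534 and 1597 CPM at day 1 and at 2954, 4517 and 3169 CPM at day 7, again without overlap, a rise of 1.09 ± 0.23 or 2.14-fold (adjusted p = 0.00069). The EB course from SL did not keep climbing: it was at 5479 CPM at day 5 and at 2954 CPM at day 7. The SL day 0 library, at 3280 CPM, stood above the SL libraries of days 1 to 3, which ranged from 1242 to 2852 CPM, and above 2 of the 3 day 7 libraries, so that in SL the rise is from day 1 and not from the undifferentiated cells. Gm27694, a separately annotated RNA of 86 bases within Malat1, starting 3588 bases into the gene, counted 3.404% to 5.68% as many reads as Malat1 and rose by 1.51 ± 0.29 between day 0 and day 7 in 2iL (adjusted p = 0.00028) and by 0.97 ± 0.23 between day 1 and day 7 in SL (adjusted p = 0.0018). Its ratio to Malat1 was 4.56% ± 0.82 at day 0 and 4.48% ± 0.95 at day 7 in 2iL (SD, n = 3; exact permutation test, two-sided p = 0.7, smallest possible 0.1, adjusted p = 0.86 over 11 such tests).

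The protein genes of the speckle did not rise with Malat1. Of 13 tested, 0 rose and 8 fell in 2iL between day 0 and day 7, when 33.8% of all genes rose and 29.9% fell, with a median log2 change of −0.34. In SL 0 rose and 8 fell between day 1 and day 7, when 33% of all genes rose and 30.3% fell, with a median of −0.32. Srsf6, a splicing factor of the SR family, fell by 0.57 ± 0.15 in 2iL and by 0.81 ± 0.12 in SL. Srsf2, also of that family, fell by 0.56 ± 0.08 in 2iL, and Srsf1 by 0.69 ± 0.10 in SL.

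Neat1, the scaffold of paraspeckles, fell on leaving 2iL and was higher again at the end. It was at 47.9, 45.2 and 64.4 CPM at day 0 in 2iL and at 24.4, 18.1 and 20.7 CPM at day 1, with no overlap, a fall of 1.35 ± 0.35 on the log2 scale (adjusted p = 0.0092; 28.6% of all genes passed, and Neat1 was the 1 member of 5). This call was lost without the EpiSC course (adjusted p = 0.077), without the Neural course (adjusted p = 0.089) or without the course block (adjusted p = 0.065), at log2 changes of −1.22 to −1.34. At day 7 it was at 115, 27.4 and 59.4 CPM, above day 1 in 3 of 3 courses (1.49 ± 0.36, adjusted p = 0.0017; 64.2% of genes called), with the EB library highest. Against day 0 the day 7 libraries were higher in 1 of 3 courses and the fitted change was 0.14 ± 0.35 (adjusted p = 0.75).

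From SL, Neat1 was at 40.3, 14.4 and 14.5 CPM at day 1 and at 49.8, 28.8 and 57.7 CPM at day 7, higher in 3 of 3 courses with overlapping groups (1.098 ± 0.35, adjusted p = 0.012). That call was lost without the EpiSC course (adjusted p = 0.054), without the Neural course (0.59, adjusted p = 0.19) and without the course block (0.93, adjusted p = 0.16). The SL day 0 library held 89.9 CPM, above each of the other SL libraries, of which the highest held 67.6 CPM. Neat1 did not move evenly between neighbouring days. In 2iL EB it was at 63.3 CPM at day 1.5, 28.6 at day 2 and 45.02 at day 2.5, and its fitted standard errors were the largest of the 5 members in every comparison.

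A set of 3 RNAs is annotated separately within the first 2 kb of Neat1 (Gm28006, Gm27505 and Gm27533, 384 bases in all), a stretch that both forms of Neat1 share. Their summed reads were 13.5% ± 2.1 of the Neat1 count at day 0 in 2iL and 19.4% ± 2.1 at day 1 (SD, n = 3), with ranges of 11.3% to 15.6% and 16.99% to 21.04% that did not overlap (exact permutation test, two-sided p = 0.1, the smallest that 3 against 3 allow; adjusted p = 0.37). At day 7 the share was 8.85%, 24.5% and 20.7%, lowest in the EB library that held most Neat1. Among 11 paraspeckle protein genes, 3 rose and 2 fell in 2iL between day 0 and day 7, and 1 rose and 3 fell in SL between day 1 and day 7, fewer in proportion than the 63.6% and 63.3% of all genes called. Hnrnph3 rose in both (1.20 ± 0.23 and 0.77 ± 0.23) and Rbm14 fell in both (by 0.94 ± 0.11 and by 0.52 ± 0.12). Nono, a core paraspeckle protein, rose by 0.56 ± 0.12 in 2iL and fell by 0.30 ± 0.08 in SL, and its partner Sfpq had log2 changes of −0.19 and −0.22 that did not pass (adjusted p = 0.12 and 0.089).

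**Figure D2:**
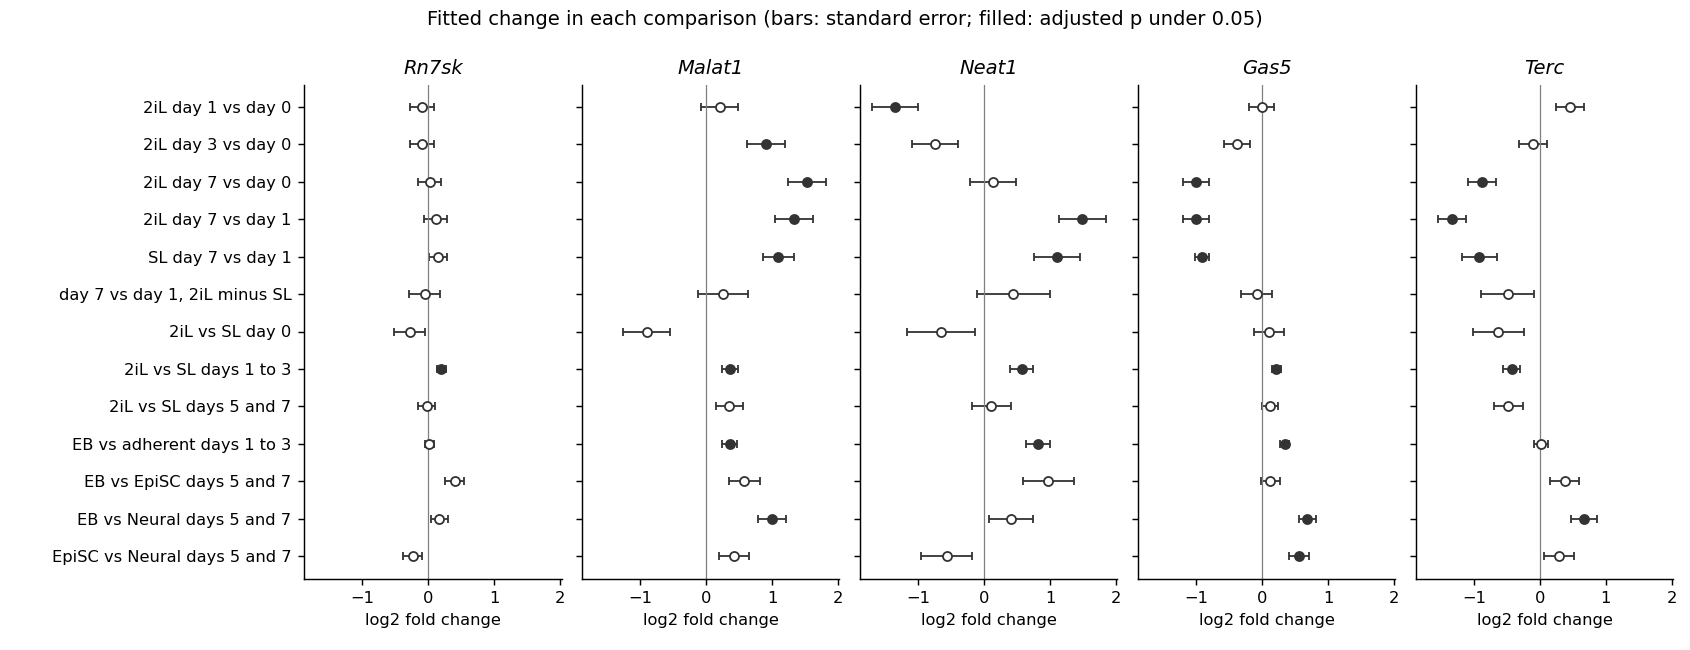
Fitted log2 fold change (points) with its standard error (bars) of each member in the 13 comparisons; filled points have an adjusted p under 0.05. Malat1 is above 0 and Gas5 and Terc below 0 in each comparison of day 7 with an earlier day, and the largest Rn7sk difference is 0.40, between EB and EpiSC at days 5 and 7.

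Gas5, the growth-linked snoRNA host, fell in both media. In 2iL it was at 53.4, 52.5 and 38.4 CPM at day 0 and at 32.4, 29.1 and 15.8 CPM at day 7, without overlap and lower in 3 of 3 courses, a fall of 0.998 ± 0.20 on the log2 scale (adjusted p = 0.00035). In SL it was at 45.6, 44.0 and 40.5 CPM at day 1 and at 26.3, 26.8 and 18.3 CPM at day 7, a fall of 0.91 ± 0.11 (adjusted p = 4.1e-06). The Neural library was the lowest at day 7 in either medium. At day 1 in 2iL it was at 42.7, 55.8 and 44.0 CPM (a log2 change of −0.0049 ± 0.19, adjusted p = 0.99) and at day 3 at 57.7, 29.6 and 29.4 CPM, above its day 0 value in EB and below it in the adherent courses (−0.38 ± 0.19, adjusted p = 0.11). Without the EB course the day 3 difference was −0.63 and passed (adjusted p = 0.025).

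The snoRNAs annotated within Gas5 were counted apart from it. All 10 lie inside merged exons of the gene in the annotation used here, since some Gas5 transcripts keep the introns, and their summed reads were 1.096 to 1.515 times the Gas5 count in all 45 libraries (median 1.28). This ratio was 1.23 ± 0.08 at day 0 and 1.24 ± 0.09 at day 7 in 2iL (SD, n = 3), with ranges of 1.14 to 1.31 and 1.18 to 1.34. Of the 7 tested, 6 fell in 2iL between day 0 and day 7 and 7 fell in SL between day 1 and day 7. Of all genes, 29.9% and 30.3% fell, and snoRNAs of the same span are not taken as separate results. Gm22357, shown above, fell by 1.24 ± 0.21 in 2iL and by 0.98 ± 0.14 in SL, and Gm23212 fell by 0.87 ± 0.33 and by 0.96 ± 0.26. Snord78 had a log2 change of −0.70 in 2iL (adjusted p = 0.055) and fell by 1.005 ± 0.24 in SL. How reads that overlap both Gas5 and a snoRNA were assigned is not given in the sources used here.

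**Figure D3:**
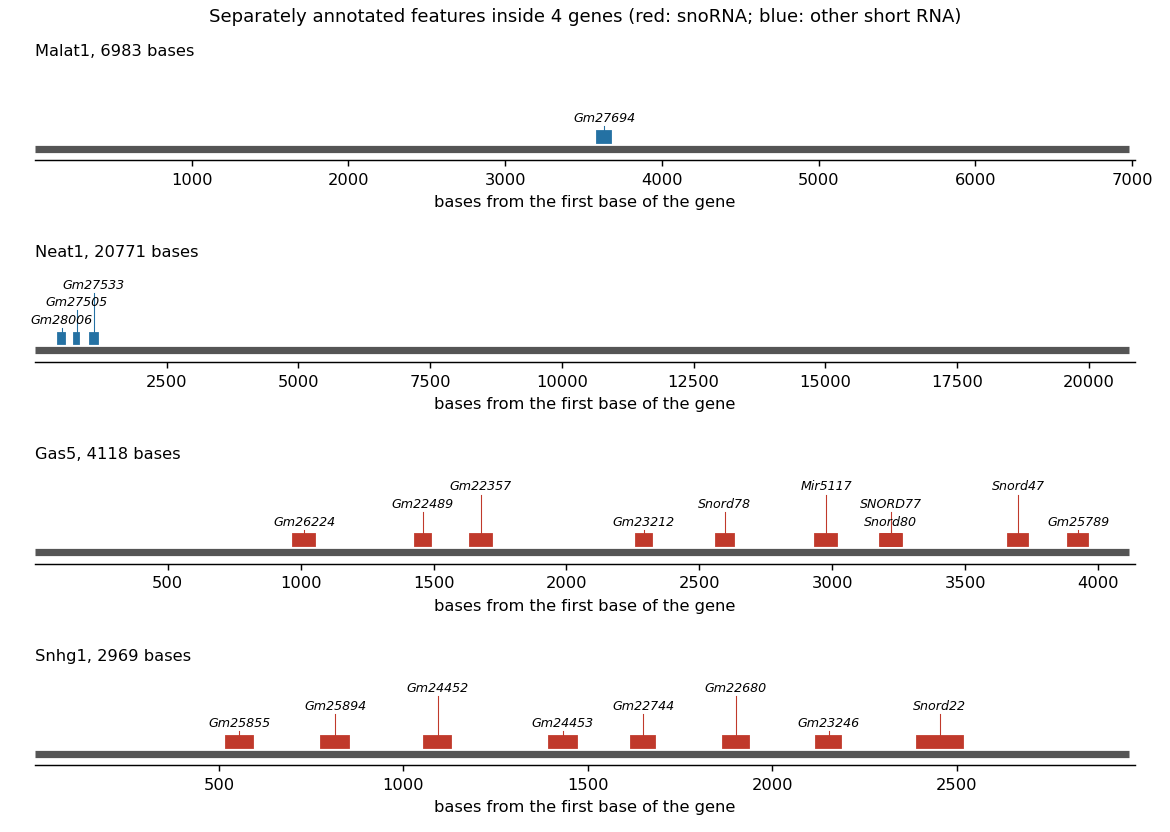
Positions of separately annotated short RNAs (boxes) along Malat1, Neat1, Gas5 and Snhg1, in bases from the first base of each gene, drawn to scale within a gene. The 10 snoRNAs of Gas5 and the 8 of Snhg1 are spread along the gene, whereas the 3 features of Neat1 lie within its first 2 kb.

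Snhg1 itself had no row, yet the 8 snoRNAs within its span (chr19:8723475-8726443, plus strand, 622 bases of snoRNA in all) were counted. Their summed level in 2iL was 107.7, 151 and 85.1 CPM at day 0 and 48.2, 77.4 and 32.8 CPM at day 7, lower in 3 of 3 courses and without overlap. In SL it was 87.7, 90.99 and 83.96 CPM at day 1 and 51.0, 50.6 and 30.3 CPM at day 7, also without overlap. For both sums the exact permutation test gave a two-sided p = 0.1, the smallest that 3 against 3 allow (adjusted p = 0.37). Each of the 8 snoRNAs fell in both comparisons, with log2 changes of −0.96 to −1.499 in 2iL and of −0.61 to −1.31 in SL. Of all genes, 29.9% fell in 2iL and 30.3% in SL. The 8 lie in 1 span and are not taken as 8 separate results. In the annotation used here that span is 1 merged exon, so their reads may also come from unspliced Snhg1 RNA, which was not tested. Gm22744, shown above, fell by 1.38 ± 0.23 and by 1.30 ± 0.24.

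**Figure D4:**
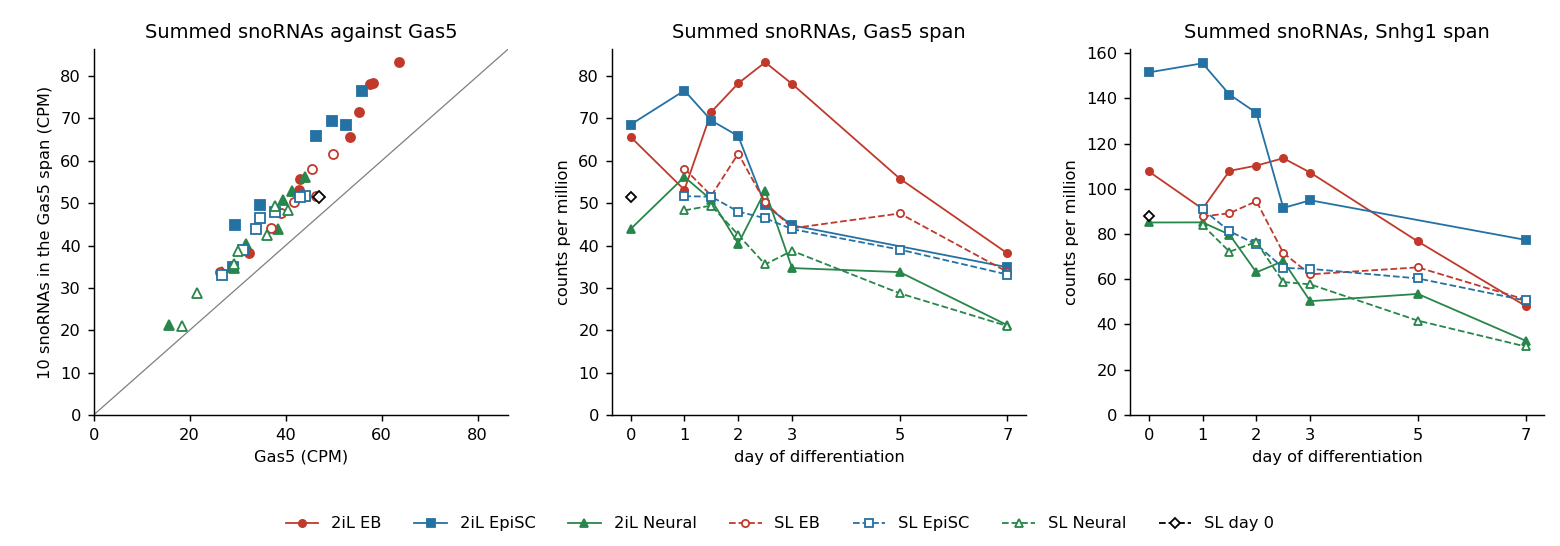
Left, summed CPM of the 10 snoRNAs of the Gas5 span against Gas5 CPM, with 1 library a point and the grey line at equal values; middle and right, summed snoRNA CPM of the Gas5 and Snhg1 spans by day, filled for 2iL and open for SL. All 45 points on the left lie above the line, at ratios of 1.096 to 1.515, and the Snhg1 sums descend to 30.3 to 77.4 CPM at day 7.

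Genes of the snoRNA particles, other snoRNA hosts and decay factors were set beside these hosts, in comparisons in which 33.8% of all genes rose and 29.9% fell (2iL) and 33% rose and 30.3% fell (SL). Of 9 box C/D snoRNP protein genes tested, 5 fell and 0 rose in 2iL between day 0 and day 7 and 8 fell and 0 rose in SL between day 1 and day 7 (median log2 changes −0.44 and −0.84, against 0.04 over all genes in either). Rrp9, a protein of the U3 snoRNP, fell by 1.08 ± 0.17 and by 1.47 ± 0.17, and Nop56, a core box C/D protein, by 0.67 ± 0.09 in 2iL. Among 12 other snoRNA host genes, 8 fell and 1 rose in each medium. Snhg12 fell by 0.84 ± 0.22 in 2iL and by 0.91 ± 0.14 in SL, Rabggtb fell by 0.90 ± 0.14 in 2iL and Snhg4 fell by 1.14 ± 0.17 in SL. Snhg18 was the host that rose, from at most 0.0892 CPM at day 0 to 1.002 to 2.18 CPM at days 5 and 7 in 2iL and by 1.32 ± 0.37 in SL. Of 10 nonsense-mediated decay factors, 6 fell and 1 rose in 2iL and 7 fell and 0 rose in SL. Smg6, an endonuclease of the pathway, was the factor that rose (0.28 ± 0.10 in 2iL).

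Terc, the telomerase RNA, fell late in both media. In 2iL it was at 12.996, 11.7 and 18.998 CPM at day 0 and at 10.4, 6.65 and 7.33 CPM at day 7, without overlap (−0.88 ± 0.21 on the log2 scale, adjusted p = 0.0020). The day 1 libraries, at 17.6, 15.7 and 27.6 CPM, were higher than day 0 in 3 of 3 courses but did not pass the test (0.45 ± 0.21, adjusted p = 0.12). From day 1 to day 7 Terc fell by 1.33 ± 0.21 (adjusted p = 5.8e-05). In SL it was at 22.5, 19.2 and 24.04 CPM at day 1 and at 13.9, 13.1 and 8.76 CPM at day 7 (a fall of 0.92 ± 0.27, adjusted p = 0.0071). The level dropped early in the SL Neural course, where it was 24.4 CPM at day 2.5, 14.1 CPM at day 3 and 8.14 CPM at day 5. SL EB was still at 24.6 CPM at day 3. The related sequence 1600017P15Rik, 81.1% identical to Terc over 408 bases, had 10 reads in all libraries together.

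Among 14 genes of telomerase, the box H/ACA ribonucleoprotein and the telomere, 9 fell and 3 rose in 2iL between day 0 and day 7 (median −0.48), and 8 fell and 0 rose in SL between day 1 and day 7 (median −0.38), beside 33.8% of all genes higher and 29.9% lower in 2iL, 33% and 30.3% in SL, and medians over all genes of 0.04. Tert, the reverse transcriptase that uses Terc as its template, fell by 1.27 ± 0.34 in 2iL. Terf1, a telomere-binding protein, fell by 1.09 ± 0.15 in 2iL. Dkc1 and Nop10, which bind the H/ACA end of Terc, fell by 1.24 ± 0.11 and by 0.97 ± 0.14 in SL. Naf1, which helps to assemble H/ACA particles, and Gar1, which replaces it, rose in 2iL (0.70 ± 0.17 and 0.43 ± 0.17).

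For Rmrp and Rpph1, without rows, the protein subunits of RNase MRP and RNase P were counted. Of 11 such genes, 6 fell and 0 rose in 2iL between day 0 and day 7 and 10 fell and 0 rose in SL between day 1 and day 7 (median −0.38 and −0.52), when 29.9% and 30.3% of all genes fell. Rpp25 fell by 4.25 ± 0.33 in 2iL and by 2.59 ± 0.29 in SL, Rpp21 fell by 1.16 ± 0.14 in 2iL, and Rpp40 fell by 1.14 ± 0.09 in SL. Of 14 other nuclear long non-coding RNAs tested in 2iL, 6 rose and 1 fell, and of 13 in SL, 5 rose and 4 fell, when 33.8% and 33% of all genes rose. H19 (9.24 ± 1.14 and 2.07 ± 0.52) and Miat (6.76 ± 1.03 and 3.27 ± 0.40) rose most, and Tsix, the antisense partner of Xist, fell by 2.57 ± 0.30 in 2iL and by 2.60 ± 0.38 in SL. Of the residual ribosomal RNA rows, 2 were tested and 1, Gm26917, fell in 2iL (by 0.97 ± 0.21), and 0 passed in SL.

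The change between day 1 and day 7 did not differ detectably between the media for any member. The differences (2iL minus SL) were −0.06 ± 0.23 for Rn7sk, 0.25 ± 0.38 for Malat1, 0.44 ± 0.55 for Neat1, −0.08 ± 0.23 for Gas5 and −0.49 ± 0.40 for Terc, with adjusted p between 0.61 and 0.95, where 2.91% of 16632 genes passed. Leaving out each course in turn moved the Malat1 difference between −0.63 and 0.91 and the Gas5 difference between −0.29 and 0.03.

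Between the starting media at day 0, 0 of 5 members passed, in edgeR as in DESeq2, where 27.7% of genes did, and at an unadjusted p under 0.05 there was 1, Malat1. Malat1 was at 1562 to 1686 CPM in the 3 libraries from 2iL and at 3280 CPM in the SL library (−0.90 ± 0.36, adjusted p = 0.060). This passed with library totals in place of TMM scaling (adjusted p = 0.045), without the EB course (adjusted p = 0.014) and in the 4 day 0 libraries alone (adjusted p = 0.011). Terc was at 11.7 to 18.998 CPM in 2iL and at 23.8 CPM in SL (−0.63 ± 0.39, adjusted p = 0.23), and passed without the Neural course (−1.04, adjusted p = 0.0033). Neat1 was at 45.2 to 64.4 CPM in 2iL and at 89.9 CPM in SL (−0.65 ± 0.52, adjusted p = 0.37; in the 4 day 0 libraries alone adjusted p = 0.048). Gas5, at 38.4 to 53.4 CPM, spanned the SL value of 47.0 CPM. With 1 SL library, its own peculiarity and the medium cannot be told apart. Among the genes called, 46.6% were higher in 2iL under TMM scaling and 35.5% with library totals.

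Over days 1 to 3, 5 of 5 members passed between the media, where 38.9% of genes did, with small differences. Terc was lower from 2iL: 9.58 to 27.6 CPM (median 15.9, n = 15) against 14.1 to 26.1 CPM (median 21.1, n = 15), lower in 13 of 15 pairs of the same course and day (−0.43 ± 0.13, adjusted p = 0.0080). Neat1 was higher from 2iL in 13 of 15 pairs, at 18.1 to 63.3 CPM (median 24.6) against 7.62 to 47.9 (median 19.99; 0.57 ± 0.17, adjusted p = 0.010). Malat1 was higher in 13 of 15 pairs, at 1499 to 4871 CPM (median 2180) against 1242 to 2852 (median 1845; 0.36 ± 0.12, adjusted p = 0.017). Gas5 was higher in 10 of 15 pairs, at medians of 44.0 and 37.9 CPM (0.22 ± 0.07, adjusted p = 0.018), and Rn7sk in 14 of 15 pairs, at medians of 16015 and 13374 CPM (0.20 ± 0.07, adjusted p = 0.033). The ranges of the media overlapped for each member. The 15 libraries of a medium are from 3 time courses and are not separate cultures. Libraries of the same course and medium deviated together (mean r = 0.43), and the p-values do not measure the spread between cultures.

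None of these calls held under every setting. For Rn7sk, adding the 2 near copies brought the difference to 0.04 (adjusted p = 0.73), beside the lower share of reads at Gm24447 in the 2iL EB and EpiSC libraries given above. That sum may count a shared read more than once, so it does not decide the call for Rn7sk itself. Without the course block the adjusted p was 0.13 for Rn7sk, 0.061 for Malat1, 0.11 for Neat1 and 0.11 for Gas5. Leaving out the EpiSC course ended the calls for Rn7sk, Malat1, Neat1 and Terc (adjusted p = 0.12, 0.12, 0.098 and 0.34), leaving out the Neural course those for Rn7sk, Neat1 and Gas5 (adjusted p = 0.32, 0.22 and 0.062), and leaving out the EB course those for Gas5 and Terc (adjusted p = 0.17 and 0.079). The direction was the same each time. At days 5 and 7, 0 of 5 members differed between the media in edgeR, 1 at an unadjusted p under 0.05 (Terc, −0.48 ± 0.22) and 0 in DESeq2, where 1.05% of genes passed in edgeR.

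Each course from each medium was a single time course, so in comparisons between courses the days take the place of replicates. Libraries of the same course and medium deviated together (mean r = 0.43), and the p-values do not measure the spread between separate cultures. Over days 1 to 3, 3 of 5 members passed between EB and the adherent courses, where 48.4% of genes did. The EB libraries were higher in Neat1 (0.82 ± 0.18, adjusted p = 0.00064), Malat1 (0.35 ± 0.11, adjusted p = 0.010) and Gas5 (0.34 ± 0.07, adjusted p = 0.00020), where 25.4% of all genes were called higher. Rn7sk (0.02 ± 0.07, adjusted p = 0.88) and Terc (0.01 ± 0.11, adjusted p = 0.95) did not pass. For Rn7sk the adherent courses lay apart: EpiSC was lower than Neural in 10 of 10 pairs, at 0.669 to 0.955 times its level, and EB was higher than EpiSC in 8 of 10 pairs and higher than Neural in 5 of 10. Within the same medium and day, Neat1 was higher in EB than in EpiSC in 10 of 10 pairs, by 1.251 to 3.80 times, and higher than in Neural in 8 of 10. Gas5 was higher in EB in 9 of 10 pairs against either adherent course, and so was Malat1. Before differentiation, at day 0 in 2iL, Gas5 was at 53.4 CPM in EB, 52.5 in EpiSC and 38.4 in Neural. Within 2iL alone the Neat1 difference was 0.41 (adjusted p = 0.14), and within SL alone the Malat1 difference was 0.31 (adjusted p = 0.052). Terc was higher in EB than in EpiSC in 10 of 10 pairs and higher than in Neural in 3 of 10.

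At days 5 and 7 Malat1, Gas5 and Terc were higher in EB than in Neural. Malat1 was at 6830 and 9950 CPM in 2iL EB (day 5 and day 7) against 2873 and 3105 in 2iL Neural, and at 5479 and 2954 CPM in SL EB against 2336 and 3169 in SL Neural, higher in 3 of 4 pairs (0.995 ± 0.21 on the log2 scale, adjusted p = 0.00037; 45% of genes called). Within SL alone the difference was 0.52 (adjusted p = 0.10). Gas5 was at 43.0 and 32.4 CPM against 26.7 and 15.8 in 2iL, and at 39.0 and 26.3 CPM against 21.6 and 18.3 in SL, higher in 4 of 4 pairs (0.69 ± 0.13, adjusted p = 0.00012). Terc was at 14.1 and 10.4 CPM against 9.35 and 7.33 in 2iL, and at 19.9 and 13.9 CPM against 8.14 and 8.76 in SL, higher in 4 of 4 pairs (0.67 ± 0.20, adjusted p = 0.0079), a call lost within 2iL alone (0.44, adjusted p = 0.073) and at day 7 alone (0.51, adjusted p = 0.18). Rn7sk (0.17 ± 0.13, adjusted p = 0.30) and Neat1 (0.40 ± 0.33, adjusted p = 0.34) did not pass.

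**Figure D5:**
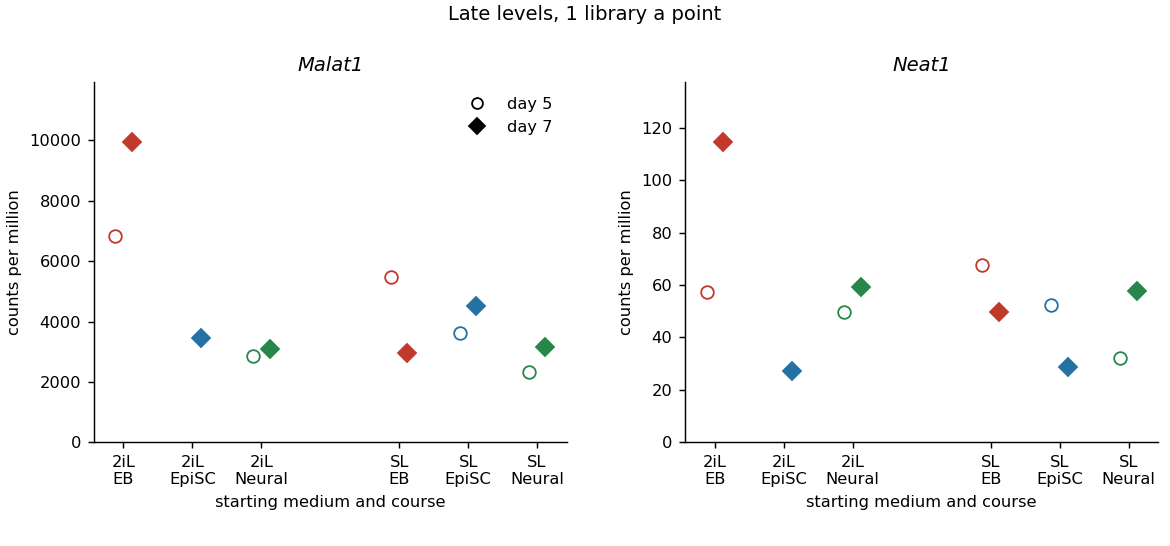
CPM of Malat1 and Neat1 at day 5 (open circles) and day 7 (filled diamonds) by starting medium and course, with 1 library a point and axes from 0; 2iL EpiSC has no day 5 point. The 2iL EB library of day 7 is the highest for both RNAs, at 9950 and 115 CPM.

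Several of the gene lists were also higher in EB than in Neural at days 5 and 7. Of the 10 genes of the Rn7sk ribonucleoprotein and P-TEFb 7 were higher in EB, of the 14 telomerase and telomere genes 6, of the 13 speckle genes 5, of the 9 box C/D genes 6, of the 10 decay factors 6 and of the 12 other snoRNA hosts 8, with 0 lower in each list, where 22.9% of all genes were called higher and 22.1% lower. Of the 6 other short structural RNAs, 4 were lower in EB, the 7SL copies Rn7s1, Rn7s2 and Rn7s6 and the U7 small nuclear RNA Rnu7. Rn7s1 was also lower in EB than in Neural at day 0 in 2iL (10287 and 24290 CPM), before differentiation. The box H/ACA snoRNAs Snora73a (0.20, adjusted p = 0.495) and Snora73b (0.17, adjusted p = 0.63) did not pass.

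Between EpiSC and Neural at days 5 and 7, 1 of 5 members passed, where 34.2% of genes did. This was Gas5, which at day 0 in 2iL was already at 52.5 CPM in EpiSC and 38.4 in Neural. Gas5 was at 29.1 CPM in 2iL EpiSC (day 7) against 15.8 in 2iL Neural, and at 31.1 and 26.8 CPM against 21.6 and 18.3 in SL (0.56 ± 0.15, adjusted p = 0.0040), a call lost within 2iL alone (0.62, adjusted p = 0.23, with 1 EpiSC library) and at day 5 alone (0.45, adjusted p = 0.24). Between EB and EpiSC 0 of 5 passed in edgeR, where 17.8% of genes did, and 3 had an unadjusted p under 0.05: Rn7sk (0.40 ± 0.14, adjusted p = 0.052), Malat1 (0.58 ± 0.24, adjusted p = 0.092) and Neat1 (0.97 ± 0.38, adjusted p = 0.080). Rn7sk passed in DESeq2 (adjusted p = 0.040), with library totals (adjusted p = 0.029) and at day 7 alone (adjusted p = 0.041); counted with its 2 near copies it gave 0.40 (adjusted p = 0.13). Within 2iL alone Malat1 (1.49, adjusted p = 0.018) and Neat1 (1.96, adjusted p = 0.047) passed, and at day 7 alone Neat1 (1.48, adjusted p = 0.035). In 2iL the EpiSC arm at days 5 and 7 is 1 library, assumed in the fit to vary like the others, and it belongs to the course that stood apart in the reads of the Rn7sk copies. The test of the difference between the media, where 2.93% of genes passed, called 1 member, Malat1 (1.498 ± 0.41, adjusted p = 0.046). This call was lost without the 2iL EB library of day 7 (1.19, adjusted p = 0.24) and with library totals (1.38, adjusted p = 0.076), and it too rests on the 1 late EpiSC library from 2iL.

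The members did not vary as a group. Over the 45 libraries, on log2 CPM scaled by TMM, the closest pair was Neat1 and Malat1 (Pearson r = 0.65), followed by Neat1 and Rn7sk (r = 0.57) and Terc and Gas5 (r = 0.49), and the most opposed was Terc and Malat1 (r = −0.39). These points share cell line, courses and days, and are a description only. Among 10845 genes with a mean of at least 5 CPM, the closest to each member was a feature that shares its sequence or span for Rn7sk (Gm24447, r = 0.78, then Gm26315, r = 0.72), for Malat1 (Gm27694, r = 0.94, then Heca, r = 0.88) and for Gas5 (the snoRNAs Gm22357, r = 0.97, and Gm26224, r = 0.93). The closest to Neat1 were Ypel5 (r = 0.76) and Fyco1 (r = 0.74). The closest to Terc were Snhg3, another snoRNA host (r = 0.87), and Nup62, a nuclear pore protein (r = 0.85).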

How the data were processed

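RNA from 45 libraries was depleted of ribosomal RNA with Ribo-Zero and made into strand-specific libraries. The authors trimmed the reads, aligned them with TopHat2 to GRCm38 (mm10) guided by Ensembl annotation and counted them per gene, by strand, with featureCounts; the deposited values are raw counts. How reads matching several places or overlapping features were assigned is not given in the sources used here. The columns hold no other per-sample values. Members were found by symbol, and 34599 of 35372 identifiers were found in the GENCODE annotation of GRCm38 used here. That annotation is of another release than the Ensembl one the authors used. The exons they counted may therefore differ from those used here for lengths and nested features. The 435 rows without a symbol held 0.000879% of the reads and were not members. CPM is the count per 1000000 counted reads of the library. Tests used edgeR 4.0.16 (TMM, filterByExpr, quasi-likelihood) on the counts, with Benjamini-Hochberg adjustment over all genes tested and a threshold of 0.05. The course served as the replicate block: deviations from the medium and day means correlated between libraries of the same course and medium (mean r = 0.43, lowest 0.079) and between media within a course (mean r = 0.32). Named were the members, up to 2 risers and 2 fallers per list and comparison, and the 2 genes most correlated with each member (log2 with a pseudocount of 0.5). A gene that this rule names is not reported here. In simulated counts on 16306 genes, 67 genes were changed 1.5-fold, 67 were changed 2-fold and 66 were changed 4-fold. The day 7 against day 0 test in 2iL recovered 7.46%, 53.7% and 90.9% of them. It called 106 genes there and 10377 in the data. The adjusted p depends on how many genes change, so these shares do not give the recovery in the data. Members and the 12 gene lists were chosen with earlier results of these data known. Alternatives were DESeq2 1.42.0, library totals, no filter, no block, each course left out, and 1 medium or day alone; the near copies of Rn7sk, the medium-specific course effects, the leaving out of the 2iL EB day 7 library and the permutation tests (SciPy 1.17.1) were added after seeing the data. Transcripts were compared with BLAST 2.17.0.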

Additional observations from a re-analysis of the deposited data

Results flagged for a closer look

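Malat1 differed between EB and EpiSC at days 5 and 7 by more from 2iL than from SL: the difference of the differences was 1.498 ± 0.41 on the log2 scale (adjusted p = 0.046, edgeR), where 2.93% of genes passed. From 2iL, Malat1 was at 6830 and 9950 CPM in EB and at 3439 CPM in EpiSC, and from SL at 5479 and 2954 CPM in EB and at 3612 and 4517 CPM in EpiSC. The test was added after the values were seen, and the EpiSC arm from 2iL is 1 library. The call was lost without the 2iL EB library of day 7 (1.19, adjusted p = 0.24) and with library totals (1.38, adjusted p = 0.076), and passed without a filter on low counts (adjusted p = 0.048) and in DESeq2 (adjusted p = 0.010). For Neat1 the same difference was 1.46 ± 0.68 (adjusted p = 0.26).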

How the results depend on the processing

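Over the members, 117 of 135 results that left out a course had the same outcome, 15 lost their call and 3 gained one. The same outcome means called in both fits or in neither, so it is not a share of calls kept. No called result changed direction. Of 367 results under other settings, 341 had the same outcome, 17 lost their call and 9 gained one. Leaving out each course in turn gave 1884 to 4421 genes for 2iL day 1 against day 0 (4663 with all), 5209 to 8514 for day 3 against day 0 (8377), 47 to 473 for the difference of day 7 against day 1 between media (484), 2873 to 5332 for 2iL against SL at day 0 (4607), 3414 to 5957 over days 1 to 3 (6477) and 28 to 354 at days 5 and 7 (175). Without the course block, the pairing of libraries, the counts were 3054 for day 1 against day 0, 160 for the difference between media, 3016 for the media at day 0 and 82 at days 5 and 7. DESeq2 called 790 for the difference between media and 443 for the media at days 5 and 7. For EB against EpiSC, 2iL alone gave 1083 and day 5 alone 1405 (2931 with all); for EB against Neural, SL alone gave 4212 (7418); for EpiSC against Neural, 2iL alone gave 2307 and day 5 alone 2424 (5634). The fall of Gas5 and Terc and the rise of Malat1 between day 0 or day 1 and day 7 passed under each alternative run. The lowest count of a member in a library was 115, and there was 1 library for each medium, course and day.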

Other observations

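Rn7s1, a 7SL RNA, differed between the library sets of the courses from 2iL, day 0 included. It was at 23286 to 40302 CPM in the 8 Neural libraries, at 8445 to 16784 CPM in the 8 EB libraries and at 7032 to 17304 CPM in the 7 EpiSC libraries. The Neural libraries thus did not overlap with the others. This gap stood at day 0 already, in undifferentiated cells: 24290 CPM in Neural, 10287 in EB and 7108 in EpiSC. From SL the courses overlapped, with the Neural libraries at 21353 to 35672 CPM, the EB libraries at 12000 to 25545 CPM and the EpiSC libraries at 15190 to 29265 CPM. Its near-identical copy Rn7s2 differed from it by at most 0.103% in a library.

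The genes most opposed to the members over the 45 libraries, looked up after the values were seen, were Tbcb for Malat1 (Pearson r = −0.89), Sh3pxd2b for Gas5 (r = −0.91), Cnot6 for Terc (r = −0.81), Txnrd1 for Neat1 (r = −0.77) and Moap1 for Rn7sk (r = −0.72). Sh3pxd2b ranged from 3.72 to 154 CPM. These values describe libraries that share cell line, courses and days.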
